A study of Homo sapiens with 14 samples.

Results

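The transcripts of IMR90 cells, a line of human lung fibroblasts, treated with inflachromene (ICM) were set against those of young cells of the same isolate, I79. ICM, a small molecule, targets HMGB1 and HMGB2, proteins of chromatin. The study used it to drive these fibroblasts into a senescent-like state, and the labels give neither its dose nor the time of exposure. The comparison held 4 of the 14 samples of the series, chosen by their titles: 2 ICM-treated and 2 young I79 samples. The 2 ICM libraries each had their own table, with reads divided among untranslated, coding and noncoding regions, whereas the 2 young samples were deposited as 1 pooled column of estimated counts. The only spread that could be measured was therefore that between the 2 ICM libraries, and nothing in the labels says whether these came from separate cultures. No sample was labelled as a vehicle control. Because reads were assigned to genes differently in the ICM tables and the young column, treatment, library and counting cannot be told apart, and every value here is a ratio without a test.

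Other columns of the series showed what such ratios can be when ICM is not involved. I10 young, a pooled column of 2 young samples of another isolate, was counted like I79 young. WT comprised 2 IMR90 libraries of wild type genotype, listed beside an HMGB2 knockdown and counted in yet another way, with no ICM in their labels and no isolate or passage given. I79 old, again a pooled column of 2 samples, held cells of the treated isolate labelled old. All of these were set against the same I79 young column, so their ratios share its errors. Columns of the HMGB2 knockdown and of old I10 cells were left out. Statements about all or every other column therefore cover only I79 young, I10 young, WT and I79 old.

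Senescent fibroblasts stop dividing for good, hold high levels of the cyclin-dependent kinase inhibitors p21 and p16, lose lamin B1 and HMGB2, and usually secrete inflammatory proteins. HMGB1 and HMGB2 are abundant DNA-bending proteins of the nucleus, and HMGB1 outside the cell acts as an alarm signal. Mitotic genes are switched off in resting cells through the DREAM complex and switched on through MYBL2 and FOXM1. The transcription factor NRF2 raises enzymes that detoxify reactive compounds and oxidants, and it is held in check by KEAP1, a sensor that electrophiles modify.

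A gene was called shifted when its log2 ratio to I79 young passed 1, a change of 2-fold, with the same sign in both ICM libraries, from all its reads and from coding reads alone. Levels are given as CPM, reads scaled to the total of the protein-coding genes that the tables share. Reads of the ICM and young tables, which can be fractional, are printed rounded. Of 11932 protein-coding genes with a mean level of at least 2 CPM, 1313 were higher with ICM (11.0%) and 1614 were lower (13.5%). By all reads alone, ICM passed the fold in both libraries for 1920 genes upward and 1961 downward, and WT for 999 (8.37%) and 1613 (13.5%), so libraries without ICM, counted differently, also gave many shifts. I10 young, counted alike, gave 0.83% upward and 0.612% downward, and I79 old gave 7.41% and 12.1%. Of the genes higher with ICM, 777 were also more than 2-fold above both I10 young and WT, and 1027 of those lower were also more than 2-fold below both. A gene could pass the filter through its level in 1 group alone, so counts among genes that passed are descriptions of these columns. The median ratio over all compared genes was -0.05 from all reads and -0.18 from coding reads. The ICM libraries held 13290131 and 10971132 reads, the young columns 14991385 (I79) and 18246187 (I10) estimated counts. The log2 ratios of the 2 ICM libraries differed by a median of 0.09. Neither ICM library was a copy of the other, since their counts differed by a chi-square of 2.33 per degree of freedom. In the ICM libraries 61.1% and 61.9% of reads lay in coding sequence. The coding ratio understates a gene whose transcript is mostly untranslated, because the young column holds reads of the whole transcript.

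**Figure D1:**
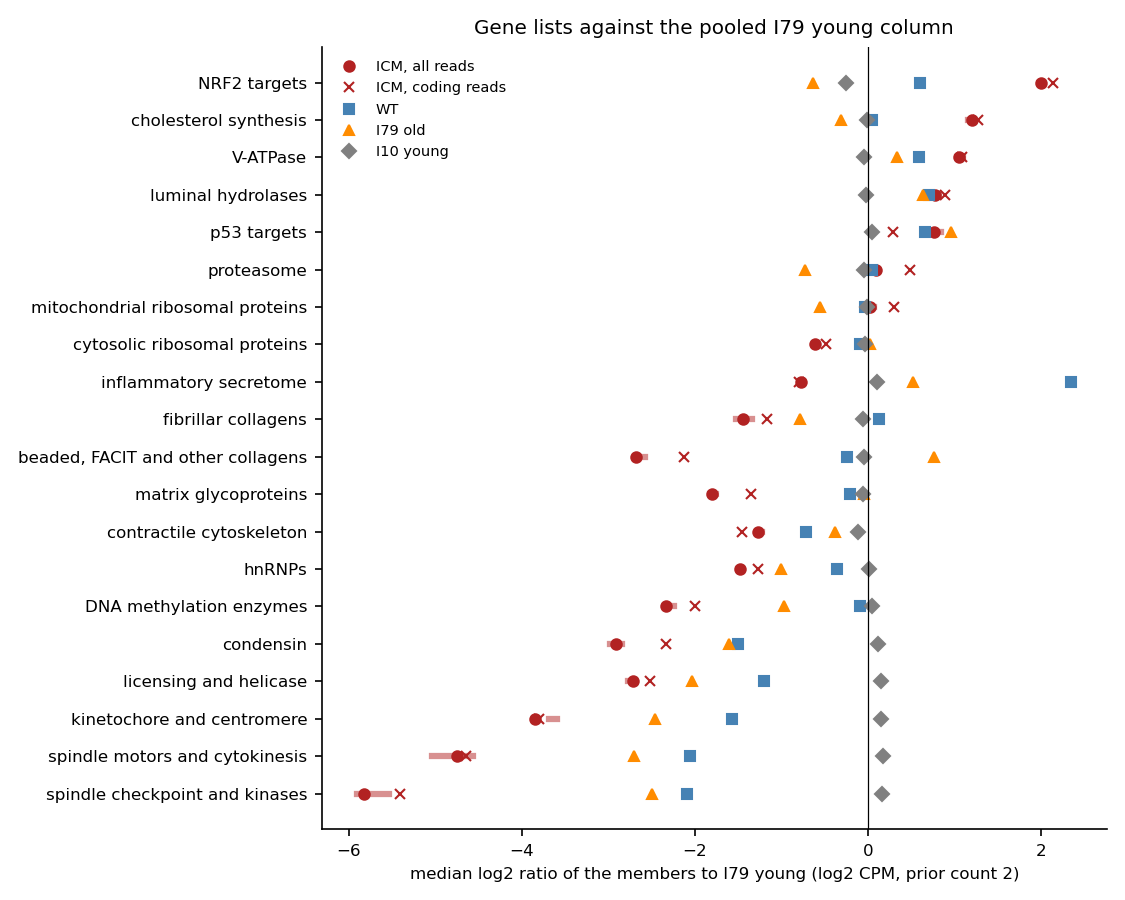
Median log2 ratio to I79 young (x axis) of the members of 20 gene groups (y axis), for ICM from all reads (red circles, with a bar joining the medians of its 2 libraries) and from coding reads (red crosses), WT (blue squares), I79 old (orange triangles) and I10 young (grey diamonds). The spindle checkpoint group lies at -5.82 with ICM and -2.09 in WT, and the NRF2 targets at 2.00 and 0.60.

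HMGB2, one of the 2 HMG-box proteins that ICM binds, was among the genes with much lower transcript levels. HMGB2 (chr4:174252527-174255583, GRCh37) was at 138 CPM in I79 young, with an exact 95% binomial interval of 132 to 145 that covers counting error only, and at 4.46 and 5.98 CPM in the ICM libraries. I10 young had 162 CPM, I79 old 38.7 CPM and the WT libraries 29.3 and 29.5 CPM, so both ICM libraries lay below every other column compared. The HMGB2 knockdown libraries were not among these. The log2 ratio to I79 young was -4.70 from all reads and -4.59 from coding reads, and that to WT was -2.49. HMGB1 stood at 552 CPM in I79 young, 119 and 117 CPM with ICM and 395 and 386 CPM in WT, a log2 ratio of -2.22 to young cells. HMGB3 had a ratio of -2.48, so that all 3 HMGB genes were lower with ICM, and each was also more than 2-fold below WT. In I79 old the 3 had a median ratio of -1.83. Counting the reads listed under pseudogene copies, of which the tables shared 1 for HMGB3 and none for HMGB1 or HMGB2, left HMGB3 at -2.40. The HMGA proteins, which bind the minor groove and build up in senescent heterochromatin, diverged. HMGA2 went from 74.6 CPM in I79 young to 24.6 and 20.9 CPM with ICM, far from the 435 CPM of I79 old and the 241 and 215 CPM of WT. HMGA1 had 424 CPM in young cells and 374 CPM in both ICM libraries, and did not pass the fold. Of the 5 HMGN nucleosome binders, HMGN2 was lower, at a ratio of -1.48, but its ratio to WT was 0.15.

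CDKN1A (chr6:36644237-36655114), which encodes the kinase inhibitor p21, was the reverse of HMGB2. It went from 402 CPM in I79 young (exact 95% interval 392 to 413) to 3349.7 and 3568 CPM with ICM, against 391 CPM in I10 young, 1257 and 1292 CPM in WT and 2380.3 CPM in I79 old. Both ICM libraries were above all other columns, with log2 ratios of 3.10 to I79 young and 1.44 to WT. Only 24% of its ICM reads lay in coding sequence, and the coding ratio was 1.70. Of the 7 kinase inhibitors, 3 were higher and 3 lower, 42.9% in each direction, against 11.0% and 13.5% of all genes. CDKN2A, the gene of p16, went from 10.6 to 40.2 and 45.5 CPM, but WT held 24.9 and 24.3 CPM and the ratio to it was 0.79. CDKN2B was at 8.87 CPM in young cells and 40.2 and 36.4 with ICM, and missed the call because its coding ratio was 0.78. CDKN2D, the inhibitor p19, was higher, with 4.44 CPM in I79 young, 3.95 and 2.66 in WT and 11.5 and 12.8 with ICM. CDKN2C, the inhibitor p18, was lower (26.3 CPM in young cells, 2.74 and 1.71 with ICM), as were CDKN1C, with a ratio of -2.37, and CDKN1B, the gene of p27, with -1.51. The D-type cyclins, which drive CDK4 and CDK6 in G1, were higher as a set of 3. CCND1 stood at 235 CPM in I79 young against 1622 and 1605 with ICM. CCND3 stood at 48.6 CPM in I79 young against 361 and 319 with ICM, and CCND2 at 1.16 CPM in I79 young against 15.3 and 14.7 with ICM. Each was also more than 2-fold above WT. I79 old had 1130.4 CPM of CCND1, 39.6 of CCND3 and 67.9 of CCND2, the last above both ICM libraries.

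**Figure D2:**
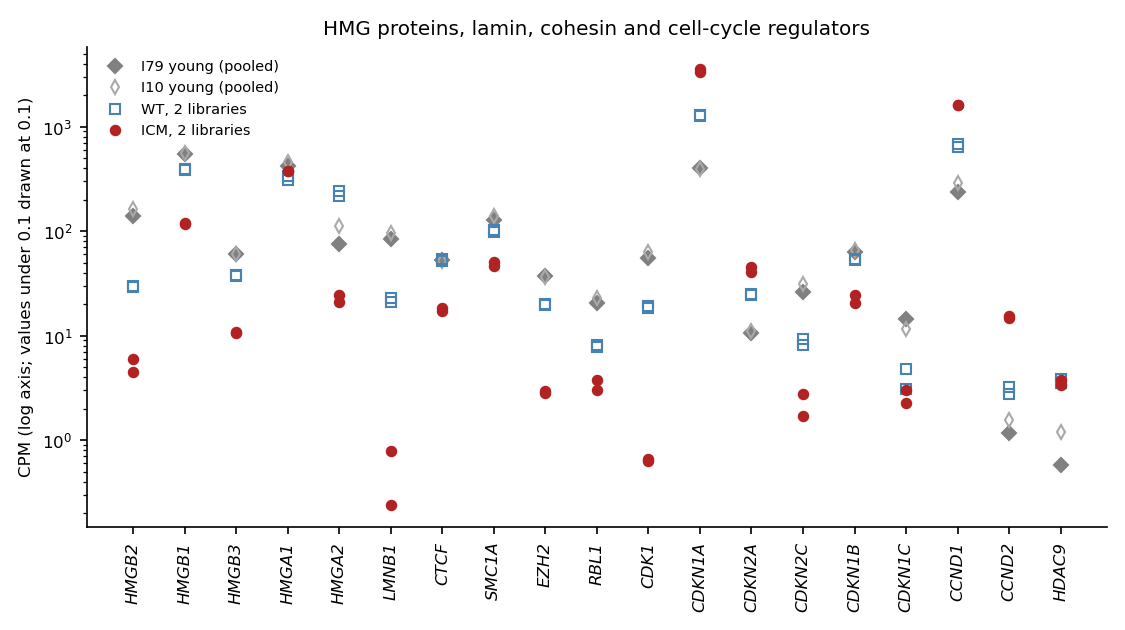
CPM (y axis, log scale) of 19 genes for HMG proteins, lamin B1, cohesin, CTCF, EZH2 and cell-cycle regulators in I79 young, I10 young, the 2 WT libraries and the 2 ICM libraries; each symbol is 1 column. The ICM libraries lie at 4.46 and 5.98 CPM for HMGB2 against 138 CPM in I79 young, and at 3349.7 and 3568 CPM for CDKN1A against 402 CPM.

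Few p53 targets stood more than 2-fold above WT. Of 32, CDKN1A included, 6 were called higher (18.8%, against 11.0% of all genes) and 0 lower. The median ratio was 0.76, against -0.05 over all genes, and WT had a median of 0.66. In I79 old the median was 0.96, and by all reads 15 of the 32 passed 1 upward, as did 7.41% of all genes. GDF15, a stress cytokine, went from 14.3 CPM in I79 young to 212 and 274 with ICM, but WT held 651 and 395 CPM and I79 old 308. GADD45A, a growth arrest gene, had 26.3 CPM in young cells, 125 and 133 with ICM and 31.3 and 30.3 in WT. Without the condition on coding reads 11 were higher, and 10 by coding reads per length against the deposited TPM. Apart from GADD45A, only CDKN1A of the 6 was also more than 2-fold above WT. TIGAR, SPATA18 and PLK3, the other called members, had ratios of 1.79, 1.65 and 1.49. PLK2 had a ratio of -1.01 and MDM2, the ligase that degrades p53, 0.75, and neither was called.

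Genes of mitosis had the lowest ratios of all gene lists examined. Of 61 genes for kinetochore, spindle and cytokinesis, 53 were lower with ICM (86.9%, against 13.5% of all genes) and 0 higher. The median log2 ratio was -4.41 from all reads and -4.42 from coding reads. With counts under 3 raised to 3, the median was -4.43. WT also had lower levels than I79 young, with a median of -1.96, and so had I79 old (-2.49), whereas I10 young had 0.16. Against WT, the ICM median was -2.32, and 46 of the 53 genes were more than 2-fold below it. Spindle checkpoint genes and mitotic kinases were lower in 11 of 12. BUB1B, which delays anaphase until chromosomes attach, had 51.5 CPM in I79 young, 13 and 12.4 CPM in WT and 0.47 and 0.332 CPM with ICM. PLK1, a kinase of mitotic entry and spindle assembly, had 58.3 CPM, 15.5 and 11.4 CPM and 0.548 and 0.854 CPM in the same order. These ICM levels are a few reads: 6 and 4 for BUB1B and 7 and 9 for PLK1. All 22 spindle motors and cytokinesis genes were lower. KIF20A, a kinesin of the midzone, went from 1822 reads in I79 young to 4 and 4 reads with ICM, and TOP2A, the topoisomerase that disentangles sister chromatids, from 5077 to 41 and 33. CENPF, an outer kinetochore protein, went from 166 CPM to 1.25 and 1.14 CPM. Kinetochore and centromere genes were lower in 20 of 27. MKI67, the proliferation antigen Ki-67 that coats mitotic chromosomes, had 221 CPM in I79 young, 34.7 and 40.9 CPM in WT and 1.17 and 0.664 CPM with ICM. The ICM libraries lay below every other column for each of these genes.

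Promoters of these genes often carry the cell-cycle homology region, bound by DREAM and by MYBL2 with FOXM1. Its letters, TTTGAA searched on both strands, were found in the window from 250 bases before to 50 bases after the start site for 33 of 50 mitosis genes with a RefSeq promoter (66.0%), against 9.71% of 9797 promoters of compared genes. CCAAT, the letters bound by NF-Y, was found in 74.0% of them and in 36.8% of all. The genes lower with ICM held TTTGAA in 15.6% and those higher in 9.71%. These shares describe the sequence and do not show binding. The windows of BUB1B (chr15:40160819-40161118), PLK1 (chr16:23678639-23678938) and KIF4A (chrX:70289854-70290153), a chromosome kinesin, are shown because the match stands close to the start site in all 3. They are RefSeq sequences of GRCh38.p14, plus strand, 5′ to 3′, with the match in capitals:
BUB1B: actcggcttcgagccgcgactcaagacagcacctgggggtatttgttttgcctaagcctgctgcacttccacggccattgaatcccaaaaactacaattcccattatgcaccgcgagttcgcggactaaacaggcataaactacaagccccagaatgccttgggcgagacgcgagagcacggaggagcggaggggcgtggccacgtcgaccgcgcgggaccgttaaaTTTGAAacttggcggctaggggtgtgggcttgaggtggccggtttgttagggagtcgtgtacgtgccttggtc
PLK1: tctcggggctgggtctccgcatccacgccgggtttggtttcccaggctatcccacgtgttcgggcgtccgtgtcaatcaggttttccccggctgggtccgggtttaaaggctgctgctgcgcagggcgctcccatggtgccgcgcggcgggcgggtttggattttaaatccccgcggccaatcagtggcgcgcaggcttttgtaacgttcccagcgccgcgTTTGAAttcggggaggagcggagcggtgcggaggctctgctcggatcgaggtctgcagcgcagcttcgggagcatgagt
KIF4A: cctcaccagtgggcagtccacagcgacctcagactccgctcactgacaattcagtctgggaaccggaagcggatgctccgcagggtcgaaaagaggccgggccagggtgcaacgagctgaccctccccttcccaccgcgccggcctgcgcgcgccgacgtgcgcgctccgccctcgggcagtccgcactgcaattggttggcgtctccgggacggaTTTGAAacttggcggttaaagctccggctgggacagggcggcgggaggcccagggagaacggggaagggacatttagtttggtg
The match begins 23, 29 and 34 bases before the start site. KIF4A had 580 reads in I79 young and 0 and 2 with ICM.

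**Figure D3:**
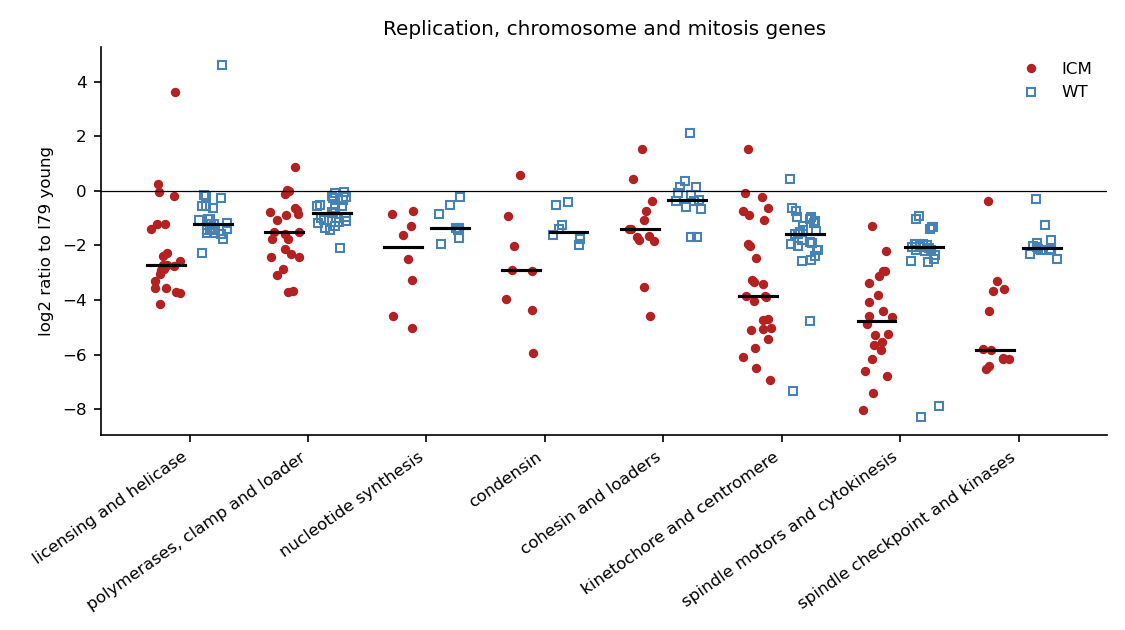
Log2 ratio to I79 young (y axis) of each gene in 8 groups of replication, chromosome and mitosis genes (x axis), for ICM (red circles) and WT (blue squares); horizontal bars are medians. The ICM median lies below the WT median in all 8 groups, at -5.82 against -2.09 for the spindle checkpoint.

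Regulators of the mitotic programme were lower as well. FOXM1 had 72.4 CPM in I79 young against 2.19 and 2.47 with ICM. MYBL2 had 36.5 CPM in I79 young against 0.627 and 0.664 with ICM, and CDK1, the kinase that triggers mitosis, 54.7 CPM in I79 young against 0.627 and 0.664 with ICM. RBL1, the p107 pocket protein of DREAM, had a ratio of -2.55. Of 9 S and M phase cyclins and kinases, 8 were lower (88.9%, against 13.5% of all genes). The exception was CCNA2, cyclin A2, which is listed at 0 in both young columns while WT held 19.6 and 20.2 CPM and the ICM libraries 4.86 and 4.46 CPM. A zero for a cyclin in columns where CDK1 and MKI67 were high may be a failed estimate, and the ratio to WT was -2.07. Replication genes were lower in 36 of 54 (66.7%, against 13.5% of all genes), with a median of -2.20. The median was -1.05 in WT and -1.38 in I79 old. By all reads, 34 of the 54 lay below -1 in I79 old, as did 12.1% of all genes. The licensing factors and helicase subunits, which open origins once per cycle, were lower in 18 of 23. MCM5 had 50.1 CPM in young cells and 2.98 and 2.37 with ICM. MCM4 was called higher, from 21 reads in I79 young, but I10 young held 9.8 CPM and WT 40.3 and 38.6 CPM against 22.1 and 19.6 CPM with ICM. RRM2, the regulated subunit of ribonucleotide reductase, had 122 CPM in I79 young against 3.46 and 3.8 with ICM. TK1, thymidine kinase, had 83.4 CPM in I79 young against 3.05 and 3.61 with ICM. Condensin, which compacts mitotic chromosomes, was lower in 6 of 8 genes, and cohesin with its loaders in 7 of 13. SMC1A, a core cohesin subunit, had 128 CPM in young cells, 97.3 and 102 in WT, 51.2 in I79 old and 50.9 and 46.7 with ICM. WAPL, which releases cohesin from DNA, was called higher, but its ratio to WT was -0.58. CTCF, which halts cohesin at loop anchors, had 52.4 CPM in I79 young, 52.1 and 53.5 in WT and 18.2 and 17.1 with ICM, so the ICM libraries were lower than all other columns although WT stood at the young level.

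Nuclear structure and chromatin genes moved in part. LMNB1, lamin B1, had 1154 reads in I79 young (83.9 CPM), 22.7 and 21 CPM in WT, 8.41 CPM in I79 old and 10 and 2 reads with ICM. TMPO, a lamina partner, had a ratio of -3.63, LBR, which ties heterochromatin to the envelope, -1.68, and LMNB2 -1.41. Of the 13 lamina and envelope genes 6 were lower (46.2%, against 13.5% of all genes). EZH2, the methyltransferase of H3K27, had 36.8 CPM in young cells, 19.5 and 20 in WT, 5.66 in I79 old and 2.98 and 2.85 with ICM. Polycomb genes as a group were lower in 6 of 18 (33.3%, against 13.5% of all genes). All 7 enzymes and cofactors of DNA methylation and its removal were lower, with a median of -2.33 where WT had -0.09 and I79 old -0.97. All 7 were also more than 2-fold below WT. DNMT1, which copies methylation after replication, had 145 CPM in I79 young, 72.4 and 72.5 in WT and 33.1 and 32.8 with ICM. UHRF1, which brings it to hemimethylated DNA, had a ratio of -3.72, and the oxidase TET1 -3.61. HDAC9 had 8 reads in young cells and 3.72 and 3.4 CPM with ICM, but WT held 3.82 and 3.53 CPM. Splicing factors of the SR and hnRNP families were lower in 19 of 32 (59.4%, against 13.5% of all genes). Their median was -1.38, against -0.30 in WT and -1.0 in I79 old. HNRNPA1 had the lowest ratio of them, -4.57. With the 3 copies that both kinds of table list, its ratio was -3.37, which shows how far the division of reads among near-identical copies can move such a value. HNRNPDL had a ratio of -2.55 and SRSF11, an SR protein, -2.09.

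NRF2 targets were higher with ICM almost throughout. Of 28, 27 passed the filter, and 22 of these were higher with ICM (81.5%, against 11.0% of all genes) and 0 lower. The median log2 ratio of the 27 was 2.00 from all reads and 2.14 from coding reads. In the same 27 genes the median was -0.25 in I10 young, 0.60 in WT and -0.63 in I79 old. Against WT the ICM median was 1.72, and 18 of the 22 were more than 2-fold above it. HMOX1 (chr22:35776354-35790207), which breaks down haem, stood at 54.9 CPM in I79 young, 53.7 in I10 young, 55 and 57.4 in WT and 1004 and 1073 with ICM. Its ratio was 4.24 from all and 4.24 from coding reads. SRXN1, which repairs oxidised peroxiredoxins, went from 81.2 to 1257 and 1292 CPM, and OSGIN1, an oxidative stress growth inhibitor, from 14.3 to 235 and 225 CPM. GCLM, a subunit of the first enzyme of glutathione synthesis, had 65.8 CPM in young cells, 86.2 and 80.2 in WT and 485 and 458 with ICM, and TXNRD1, thioredoxin reductase, 940 CPM in I79 young, 967 and 978 in WT and 3391 and 3424 with ICM. NQO1, a quinone reductase, was closer to the threshold, with 636 CPM in I79 young, 1000 and 934 in WT and 1599 and 1617 with ICM. For HMOX1, SRXN1, OSGIN1, GCLM and TXNRD1 both ICM libraries lay above every other column.

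The aldo-keto reductases, which reduce carbonyls and steroids, had the largest ratios of this list. AKR1C1, AKR1C2, AKR1C3 and AKR1C4 share long stretches of sequence, so their reads were summed. Together they held 80.3 CPM in I79 young, 63.5 in I10 young, 166 and 139.9 in WT, and 3508 and 3604 with ICM, a fold of 44.3. AKR1B10 and its copy AKR1B15 together went from 2.84 to 169.6 and 167 CPM. By symbol, 8 of 10 AKR genes were higher, 1 of only 2 among 212 families of 8 or more genes with at least 75% shifted one way. The iron store ferritin was the most abundant part of the response. FTL, the light chain, had 3617 CPM in young cells, 8134 and 7095 in WT, 7115 in I79 old and 29193 and 31239.5 with ICM, and FTH1, the heavy chain, 2716 in young cells, 9321 and 7912 in WT, 3532 in I79 old and 13572 and 14771 with ICM. PGD, a pentose phosphate enzyme that makes NADPH, had a ratio of 1.69. The members that were not called were UGDH, ABCC1, TKT, PIR and SLC7A11, and the last, the cystine carrier, had a ratio of 1.09 from all reads but -0.22 from coding reads. NFE2L2, the gene of NRF2 itself, had 369.7 CPM in young cells and 203 and 212 with ICM. The AHR targets, a set of xenobiotic genes that here also holds NFE2L2, included no called member, with a median of -0.04 over 4 genes. Outside the list, SQSTM1, an autophagy receptor that also binds KEAP1, went from 424 to 4344 and 4508 CPM, while WT listed 24 and 9 reads, too few to compare. PTGR1, a prostaglandin reductase, had 117 CPM in young cells, 109 and 97.4 in WT and 1489 and 1527 with ICM. SQSTM1 and PTGR1 were named after their values were seen.

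**Figure D4:**
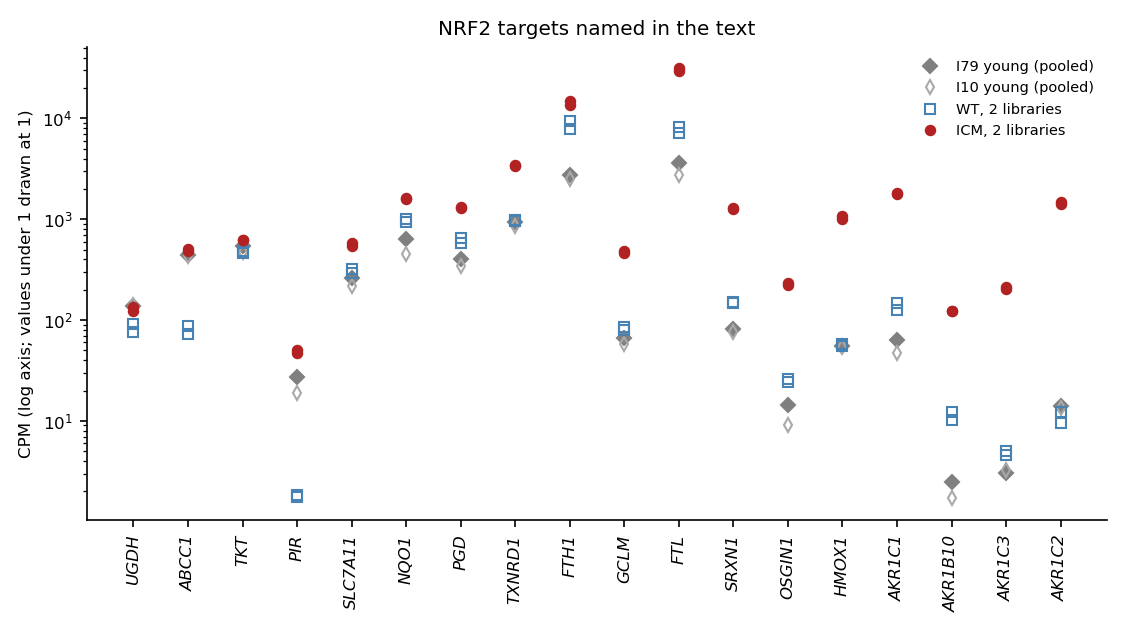
CPM (y axis, log scale) of the NRF2 targets that the text names, ordered along the x axis by their ICM ratio, in I79 young, I10 young, the 2 WT libraries and the 2 ICM libraries; each symbol is 1 column. For HMOX1 the ICM libraries stand at 1004 and 1073 CPM and the WT libraries at 55 and 57.4 CPM, next to I79 young at 54.9 CPM.

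NRF2 binds the antioxidant response element, whose core was searched as TGACNNNGC on both strands. In the same promoter window it was found for 5 of 19 NRF2 targets with a RefSeq promoter (26.3%), against 15.1% of all. The genes higher with ICM held it in 17.5% and those lower in 12.3%, shares within 3 percentage points of the background. Many known elements lie outside a window of this size. The windows of 2 genes are shown, those of GCLM (chr1:93909381-93909680, minus strand, given in the direction of the gene) and of TXNRD1 (chr12:104215529-104215828, plus strand), as RefSeq sequences of GRCh38.p14 with the matched core in capitals:
GCLM: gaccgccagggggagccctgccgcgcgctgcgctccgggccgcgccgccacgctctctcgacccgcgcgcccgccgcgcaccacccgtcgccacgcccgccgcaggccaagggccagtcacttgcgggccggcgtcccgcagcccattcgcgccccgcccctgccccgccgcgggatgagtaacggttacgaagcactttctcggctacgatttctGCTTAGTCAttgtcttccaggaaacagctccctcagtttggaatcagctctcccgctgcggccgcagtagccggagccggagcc
TXNRD1: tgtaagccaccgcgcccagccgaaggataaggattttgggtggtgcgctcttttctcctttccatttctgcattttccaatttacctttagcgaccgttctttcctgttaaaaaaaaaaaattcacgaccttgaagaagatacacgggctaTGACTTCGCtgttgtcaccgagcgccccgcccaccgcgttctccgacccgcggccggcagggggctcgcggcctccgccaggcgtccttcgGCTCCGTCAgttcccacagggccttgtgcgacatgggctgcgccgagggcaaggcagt
GCLM has 1 match, on the opposite strand. TXNRD1 has 2, 1 on each strand.

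Cholesterol synthesis was higher with ICM along much of the pathway. Of 20 enzymes, 11 were higher (55.0%, against 11.0% of all genes) and 0 lower. The median was 1.20 from all reads and 1.27 from coding reads, against 0.05 in WT, -0.01 in I10 young and -0.31 in I79 old. DHCR7, the reductase of a last step of the pathway, had 33.4 CPM in I79 young, 40.9 and 40.4 in WT and 159 and 159 with ICM, so both ICM libraries lay above these columns. The fatty acid desaturases FADS1 and FADS2 had ratios of 2.58 and 1.87, whereas FASN, fatty acid synthase, had 0.89 and was not called. SREBF1, one of the 2 genes for the controlling factors, had a ratio of -0.66. Over the whole list, 12 of the 14 higher genes were more than 2-fold above WT.

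Lysosomal genes were higher in 22 of 67 (32.8%, against 11.0% of all genes), with 1 lower (1.49%, against 13.5%) and a median of 0.87. They included 7 of 16 subunits of the V-ATPase, the pump that acidifies the lysosome, 9 of 35 hydrolases and 6 of 16 membrane proteins and regulators. WT had a median of 0.70 in the same genes, and only 6 of the 22 were more than 2-fold above WT. GLA, alpha-galactosidase A, had 21.5 CPM in I79 young, 59.5 and 45.9 in WT and 157 and 158 with ICM, above every other column. MCOLN1, a lysosomal calcium channel, had 8.51 CPM in I79 young, 28.9 and 24.9 in WT and 55.7 and 60.2 with ICM. NPC1, which exports cholesterol, had a ratio of 2.37 to young cells and 0.79 to WT. GUSB, beta-glucuronidase, went the other way, from 33.2 to 10.8 and 10.5 CPM.

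Many collagen chains were lower with ICM. Of 25 chains 17 were lower (68.0%, against 13.5% of all genes) and 0 higher. Of 16 maturation enzymes 2 were lower (12.5%) and 3 higher (18.8%, against 11.0% of all genes), with a median of 0.20. Together 19 of 41 were lower, or 12 once the trend with transcript length is removed, and 19 of the 19 were also more than 2-fold below WT, in which the median was 0.13. COL6A3, a beaded filament chain, had 9007 CPM in I79 young, 4934 and 5917 in WT, 9079 in I79 old and 419 and 482 with ICM, so that its ICM levels lay far below all other columns. COL1A1, the main chain of type I collagen, had 13026 CPM in young cells, 5397 and 8559 in WT and 3157 and 3039 with ICM. Its partner chain COL1A2 had 5768 CPM in I79 young against 4289 and 4367 with ICM, and was not called. COL14A1 and COL16A1, collagens on fibril surfaces, had ratios of -3.83 and -3.56. The basement membrane chains COL4A1 and COL4A2 had -2.41 and -2.01. PCOLCE, which speeds procollagen cleavage, had 451 CPM in young cells and 15.2 and 17.5 with ICM. The 3 higher members were enzymes of crosslinking, namely PLOD2, a lysyl hydroxylase, and the lysyl oxidases LOX and LOXL4. PLOD2 had 274 CPM in I79 young, 344 and 339 in WT and 1170.1 and 1064 with ICM, and LOX had 449.6 CPM in I79 young, 645 and 718 in WT and 1267 and 1248 with ICM. LOXL4 had a ratio of 1.11.

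Matrix glycoproteins and proteoglycans were lower in 21 of 40 (52.5%, against 13.5% of all genes), with a median of -1.77, against -0.22 in WT. TNC (chr9:117781854-117880486), the wound matrix protein tenascin C, had 2200.4 CPM in I79 young, 803 and 877 in WT, 311 in I79 old and 22 and 26.9 with ICM, a ratio of -6.49. VCAN, the proteoglycan versican, had 568 CPM in I79 young, 1044 and 1191 in WT and 10.4 and 11.7 with ICM. ELN, elastin, had 29.8 CPM in I79 young, 73.6 and 93.2 in WT and 0.313 and 0.38 with ICM, the last being 4 reads in each library. FN1, fibronectin, had 8844 CPM in young cells, 5570.5 and 6927 in WT and 1736 and 1724 with ICM. POSTN, periostin, also had a low ratio to young cells, -3.00, but WT was as low, and the ratio to it was 0.06. GPC1, a glypican, was higher, with 218 CPM in young cells and 1108 and 1083 with ICM, as were NID2, a nidogen, and CCN1, with ratios of 1.82 and 1.32. Of NID2 and CCN1, only 1 was also more than 2-fold above WT. Of 26 genes of the contractile cytoskeleton 13 were lower and 1 higher. ACTA2, smooth muscle actin, had 595 CPM in I79 young, 114 and 217 in WT and 91.5 and 92.2 with ICM, so WT covered most of the distance. TPM2, a tropomyosin, was the higher member, at 3.07, but was not more than 2-fold above WT. Matrix proteases diverged. MMP3, stromelysin, had 10 reads in I79 young and 170 and 178 CPM with ICM, but 327 and 132 CPM in WT, while MMP2, a gelatinase, had a ratio of -1.30. The sums of the 14 fibroblast markers, among them COL1A1 and FN1, were 14852 and 15151 CPM with ICM, 40322 in I79 young and 26719 and 34949 in WT. Of the 14, 7 were called lower and 0 higher, with a median ratio of -1.52, against -0.60 in WT. None was at 0, and VIM and THY1 had ratios of -1.05 and 0.08. In these bulk libraries, fewer cells of a kind and less RNA per cell cannot be told apart. Of 13 markers of epithelium, endothelium and blood compared, only CD68, a lysosomal protein that fibroblasts also express, passed the filter, at 24.3 CPM in young cells and 60 and 66.9 with ICM. The endothelial markers compared summed to 0.714 CPM in I79 young, 3.21 and 3.32 with ICM and 7.74 and 7.61 in WT, with VWF at 7 reads in I79 young and 40 and 35 with ICM. The epithelial markers summed to 0.655 CPM in I79 young and 0.352 and 0.617 with ICM. CDH5, CD3E, KRT14, SFTPC and SCGB1A1 were at 0 in both. The part of other cell types in the ratios was not tested.

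**Figure D5:**
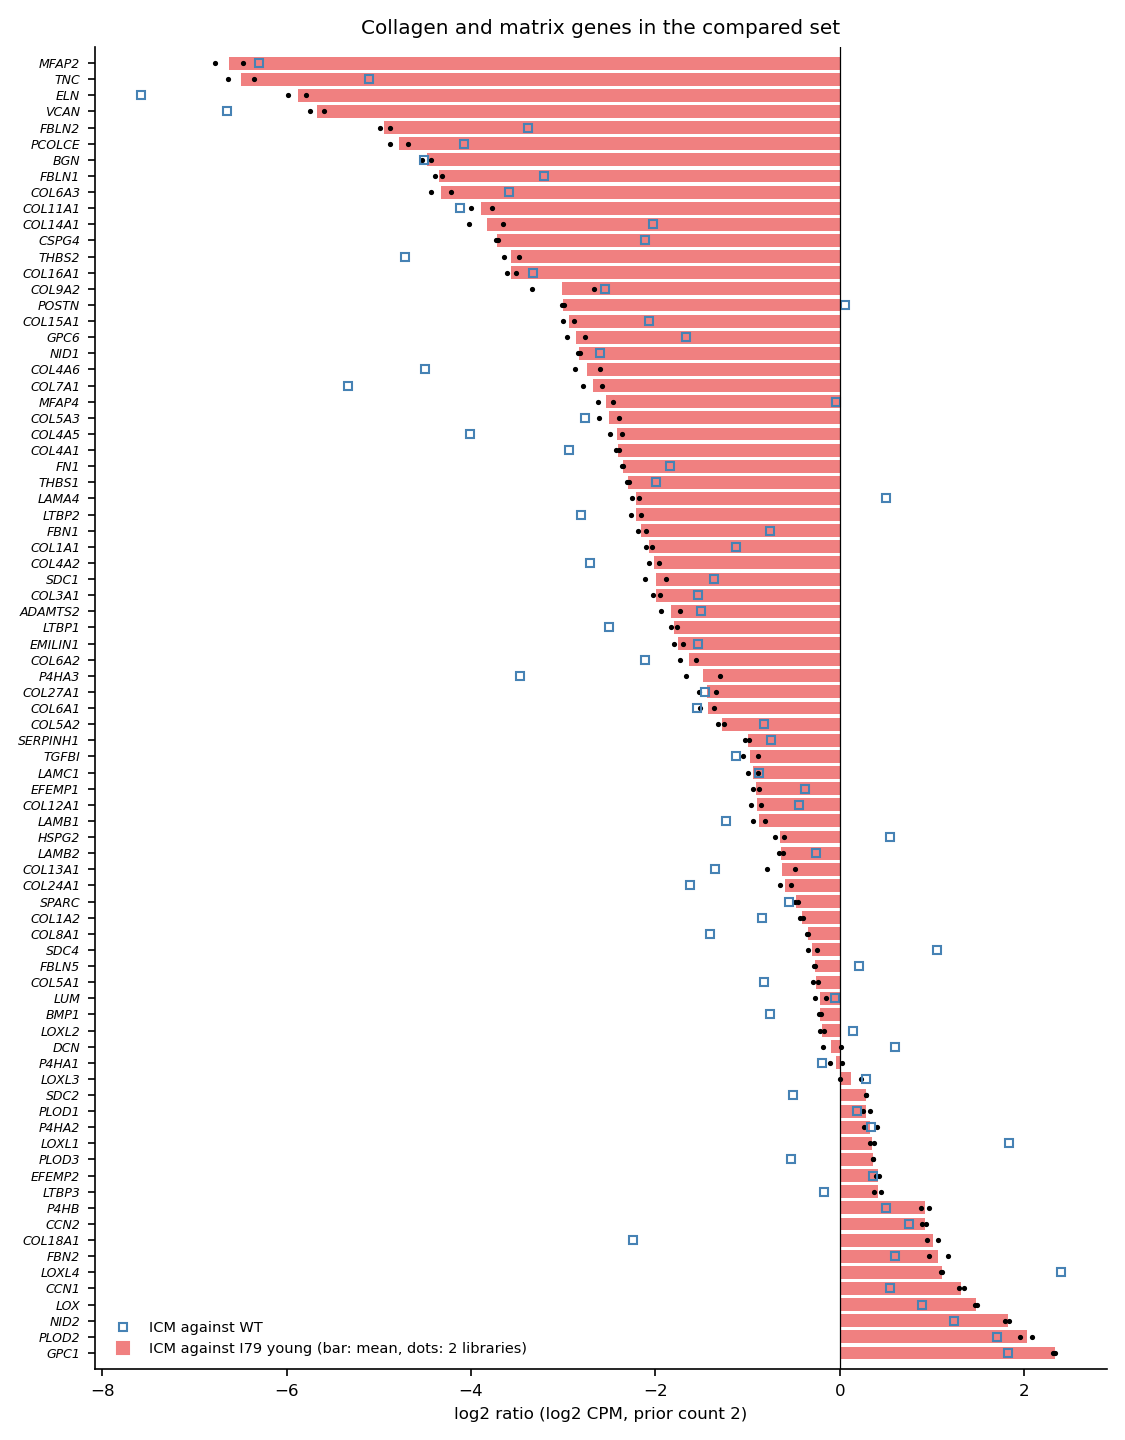
Log2 ratio (x axis) of the collagen and matrix genes that passed the filter (y axis), for ICM against I79 young (bars, the mean of 2 libraries, with a dot for each) and ICM against WT (blue squares). TNC stands at -6.49 and -5.10, while POSTN stands at -3.00 against young cells and 0.06 against WT.

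The inflammatory secretome was mixed against young cells and low against WT. Of 42 genes, 29 passed the filter. Of these, 12 were lower than I79 young (41.4%, against 13.5% of all genes) and 5 higher (17.2%, against 11.0%). The WT libraries had a median ratio of 2.35 to I79 young, so the ICM median was -0.77 against young cells and -2.85 against WT. IL1B, interleukin 1 beta, had 14.3 CPM in I79 young, 4.67 in I79 old, 304 and 169.9 in WT and 1.25 and 1.8 with ICM. IL6 went from 3.85 to 9.24 and 14.2 CPM and was called higher, but WT held 535 and 304 CPM. TNFAIP3, a target and brake of NF-kB, had 22.6 CPM in young cells and 2.43 and 1.61 with ICM. C3, complement, had 7.71 CPM in young cells, 80.6 in I79 old and 0.157 and 0.19 with ICM. CXCL12, a chemokine of resting fibroblasts, had 471 CPM in young cells, 30 in I79 old, 14.8 and 18.2 in WT and 32 and 36.9 with ICM. Its ICM libraries thus lay with I79 old and WT and not with young cells. The interferon genes were split, with 6 higher and 6 lower of 35, 17.1% in each direction, against 11.0% and 13.5% of all genes. In the integrated stress response, 4 of 30 were higher and 6 lower, against 11.0% and 13.5% of all genes. ATF3, an early stress factor, had 9.31 CPM in young cells, 22.4 and 22.9 in WT and 156 and 175 with ICM, while ASNS, asparagine synthetase, went from 146 to 9.28 and 12.2 CPM, with WT lower still at 0.568 and 1.27 CPM.

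Further groups diverged within themselves. Of 17 matrix proteases and inhibitors 6 were higher (35.3%, against 11.0% of all genes) and 4 lower (23.5%, against 13.5%). MMP10, another stromelysin, had 0.364 CPM in I79 young, 11 and 5.7 in WT and 27.8 and 28 with ICM, and SERPINB2, the plasminogen activator inhibitor of stressed cells, 0.364 CPM in I79 young, 70.6 and 33.1 in WT and 50.9 and 56.9 with ICM, so that WT came close to the ICM level of the latter. MMP16, a membrane protease, had a ratio of -3.70, and TIMP3, an inhibitor held in the matrix, -2.64. In the IGF axis 2 of 16 were higher, a share of 12.5% near that of all genes, and 4 lower (25.0%). IGF1R, the receptor, had 7.63 CPM in I79 young, 86.3 and 109 in WT and 68.8 and 68.6 with ICM, and IRS2, its adaptor, 4.25 CPM in I79 young, 42.3 and 37 in WT and 32 and 33 with ICM, both with WT near or above the ICM level. IGF1, the ligand, had 3.43 CPM in I79 young, 0.568 and 0.434 in WT and 0.992 and 0.459 with ICM. Of 5 metal response genes 2 were higher (40.0%, against 11.0% of all genes), MT1G and MT1X, whose reads can be shared with near-identical copies. MT1X, a metallothionein, had 5.53 CPM in I79 young, 13.1 and 8.88 in WT and 20.8 and 18.9 with ICM. SLC30A1, the zinc exporter, had 38.2 CPM in I79 young, 68.4 and 73.6 in WT and 91.4 and 84.8 with ICM and was not called. Of 28 genes of protein folding in the endoplasmic reticulum 4 were higher (14.3%, against 11.0% of all genes) and 1 lower (3.57%, against 13.5%), and SDF2L1, DNAJB9 and CRELD2, chaperones and cofactors among the higher ones, had ratios to WT of 0.01, -0.84 and -0.07. Cytosolic chaperones were higher in 3 of 29, or 10.3%, no more than over all genes, although these members stood above WT too. HSPB8, a small heat shock protein, had 17.6 CPM in I79 young, 13.3 and 12.8 in WT and 91.5 and 95.1 with ICM. BAG3, its partner in chaperone-assisted autophagy, had 83.1 CPM in I79 young, 81.3 and 87.8 in WT and 185 and 189 with ICM. DNAJB4, an HSP40 cochaperone, had 42 CPM in I79 young, 35.6 and 39.8 in WT and 153 and 141 with ICM.

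In glycolysis 3 of 23 genes were higher and 0 lower, a share of higher genes near the 11.0% of all genes. SLC2A1, the glucose carrier GLUT1, had 142 CPM in I79 young, 219 and 256 in WT and 982 and 1016 with ICM. SLC2A12, a related carrier outside this list that was among the large rises over all genes, had 11.9 CPM in I79 young, 6.73 and 10.2 in WT and 272 and 258 with ICM. Nuclear pore genes were lower in 5 of 27 (18.5%, against 13.5% of all genes). Their median was -0.84, against -0.33 in WT and -0.61 in I79 old. RANBP2, on the cytoplasmic face, had 175 CPM in I79 young, 154 and 184 in WT and 46.6 and 45.8 with ICM, and TPR, of the nuclear basket, 204 CPM in I79 young, 208 and 235 in WT and 55 and 63.3 with ICM. Among 37 ribosome biogenesis genes, 1 was higher (2.7%) and 2 were lower (5.41%), against 11.0% and 13.5% of all genes. Among 16 aminoacyl-tRNA synthetases 1 was higher and 1 lower, 6.25% in each direction. NPM1, nucleophosmin, had a ratio of -1.42. HOX genes, which hold positional identity, were lower in 8 of 16 and higher in 0, but 3 of the 8 were also more than 2-fold below WT, and the median against WT was -0.05. HOXA3 had 26 CPM in I79 young, 14.7 and 15.9 in WT and 3.05 and 3.99 with ICM, and HOXB4 27.7 CPM in I79 young, 19.5 and 17.5 in WT and 4.26 and 5.81 with ICM, with both ICM libraries the lowest of these columns. Kinesins serve both mitosis and transport. KIF2C, which takes apart microtubule ends at centromeres, had 52.7 CPM in I79 young, 12.6 and 12.3 in WT and 0.313 and 0.475 with ICM, whereas KIF1C, a carrier of vesicles, had 152 CPM in I79 young, 251 and 251 in WT and 366 and 355 with ICM. Of 27 kinesins 12 were lower (44.4%, against 13.5% of all genes) and 2 higher (7.41%, against 11.0%). Clustered protocadherins were lower in 10 of 19 (52.6%, against 13.5% of all genes). Their shared exons make counts depend on the counting, and the median against WT was 5.16. The genes named ZNF were higher in 17 (3.95%) and lower in 94 (21.9%) of 430, against 11.0% and 13.5% of all genes, with a median of -0.58. Of 15 tubulins 5 were higher (33.3%) and 1 lower (6.67%), but 3 of the 15 had under 3 reads in I79 young. The sum over all 21 tubulins compared went down, from 7364 CPM in I79 young to 4536 and 4282 with ICM, with 1560.2 and 1689.5 in WT.

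Housekeeping groups gave smaller medians. Of 32 proteasome genes 2 were higher (6.25%, against 11.0% of all genes) and 0 lower, with a median of 0.09. Nuclear-encoded respiratory chain genes had a median of 0.28 with 9 of 82 higher (11.0%, the same share as over all genes). Mitochondrial ribosomal proteins had a median of 0.02 with 2 of 78 higher (2.56%). Cytosolic ribosomal proteins had a median of -0.61, with 6 higher (7.41%) and 7 lower (8.64%) of 81, against 11.0% and 13.5% of all genes. Genes with many copies dominated both ends of that list. RPS27 had 6.57 CPM in I79 young but 805 and 636 in WT and 416 and 514 with ICM, and RPL13A had 1859 CPM in I79 young, 2743 and 2282 in WT and 189 and 195 with ICM. With its 5 listed copies RPL13A had a ratio of -2.43 in place of -3.27. Replication-dependent histones, whose transcripts mostly lack poly(A) tails, had 61 genes in all tables, of which 17 passed the filter. Of these 17, 13 were higher (76.5%, against 11.0% of all genes). Summed over 59 genes they held 81.1 CPM in I79 young, 87.7 in I10 young, 114 and 95 in WT and 839 and 841 with ICM. Replication genes went the other way, and the part of library preparation and counting in this was not tested.

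Over all genes, 5 of the 12 largest falls belonged to the mitosis list. The 12 were KIF20A, DLGAP5, MKI67, KIF4A, LMNB1, CENPF, NBPF9, RASL12, TOP2A, MFAP2, KIF2C and CKAP2L. The NBPF genes, a family of near-identical copies, held 490.3 CPM together in I79 young and 64 and 63.6 with ICM, with 167 and 193 in WT. The 12 largest rises all had under 10 reads in I79 young, and most were processed copies of abundant genes, such as PGAM4, PABPC3 and NACA2, or read-through symbols. Among the rest, SPP1, the secreted phosphoprotein osteopontin, had 0 reads in I79 young and 199.6 and 201 CPM with ICM, at least 915-fold higher when the zero is set at 3 counts. CYP26B1, which breaks down retinoic acid, had 0 reads in young cells and 118 and 124 CPM with ICM, at least 543-fold higher by the same rule. Both bounds cover counting error only, and a 0 in the young column may be a failed estimate, as for CCNA2. Among genes with at least 20 reads in both young columns, a rule added after the values were seen, large rises were those of the AKR1C genes, GPR39, a zinc-sensing receptor, ANGPTL4, an inhibitor of lipoprotein lipase, SLC40A1, the iron exporter ferroportin, and HSD11B1, which regenerates cortisol. SLC40A1 had 8.44 CPM in I79 young, 61.8 and 61.3 in WT and 277 CPM in each ICM library. ANGPTL4 had 3.49 CPM in I79 young, 24.9 and 19.3 in WT and 139 and 133 with ICM, GPR39 1.45 CPM in I79 young, 6.88 and 7.15 in WT and 83.7 and 93.2 with ICM, and HSD11B1 3.64 CPM in I79 young, 32.1 and 19.2 in WT and 104 and 109 with ICM. BMP6, a bone morphogenetic protein that induces hepcidin, had 3.05 CPM in I79 young, 14.7 and 10.4 in WT and 85.8 and 82.9 with ICM. PDK4, a kinase that shuts pyruvate dehydrogenase, named after its values were seen, had 1.31 CPM in I79 young, 85.5 and 56.1 in WT and 271 and 393 with ICM.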

How the data were processed

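RNA was measured by sequencing. For each ICM library the authors deposited a table of estimated counts by gene and region of the transcript, fractional where a read was shared, and all regions of a symbol were summed. For young and old cells the deposited columns hold 1 value per transcript for pooled samples, as estimated counts (summed per symbol without rounding) with TPM beside them. For WT the authors deposited raw counts per gene, and summary rows that name no gene (17.5% and 17.9% of the total) were left out. The labels name GRCh37, STAR 2.6.0c and featureCounts without saying for which table, the tool behind the estimated counts is not given in the sources used here, and the labels and the study's methods describe RNA extraction and libraries differently. Columns of the HMGB2 knockdown and of old I10 cells were not used here.

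Shared protein-coding symbols (19116) were scaled to CPM over their own totals (91.7 to 96.1% of reads), with a mean of at least 2 CPM over ICM and I79 young for 11932. Ratios were differences of log2 CPM with a prior count of 2, which understates changes of low genes. TMM factors came from edgeR 4.0.16, and all else was computed in Python 3.11.15. The rule was tested on simulated data: it missed raised genes with few reads in coding sequence and lowered genes with many. A count of 0 allows up to 3 counts, 0.218 CPM in I79 young, and 0.235 and 0.285 CPM with ICM. Intervals and floors cover counting error only. The groups and lists were chosen with earlier results of these data known. Named genes were a panel of the study, the 4 largest positive and negative ratios of each list with members against the rest, and the 12 largest of each direction above 10 CPM that also passed 2-fold against I10 young and WT. Chosen after their values were seen were ABCC1, BUB1B, CD3E, CDH5, COL16A1, COL1A1, COL1A2, COL4A1, COL4A2, DNMT1, FASN, FTH1, FTL, GCLM, HMGN2, HMOX1, IL1B, IL6, KRT14, LMNB2, MDM2, NQO1, OSGIN1, PDK4, PGD, PIR, PLK1, PLK3, POSTN, PTGR1, SCGB1A1, SFTPC, SLC7A11, SPATA18, SQSTM1, SRSF11, SRXN1, TKT, TXNRD1, VIM and VWF. Alternatives changed the control, reads, scaling, prior count, filter, length correction, fold and replicate. Some genes of the lists are counted but not reported here by name. Coordinates in the text are GRCh37 unless named otherwise.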

Additional observations from a re-analysis of the deposited data

How the results depend on the processing

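No paired analysis was possible because the young I79 samples were deposited as 1 pooled column. Leaving out either ICM library gave 1410 to 1426 genes higher and 1750 to 1809 lower. With a log2 fold of 0.6, 2127 genes were higher and 2665 lower, among them 23 sterol, 34 lysosome and 10 p53 genes higher. With a log2 fold of 2, 497 were higher and 566 lower, with 13 NRF2 targets, 1 sterol, 5 lysosome and 1 p53 genes higher, and 9 collagen and 4 splicing genes lower. Coding reads alone gave 2660 genes lower, and coding reads per length against the deposited TPM 2693, with 10 p53 targets higher. Without the coding condition 11 p53 targets were higher. With the length trend removed 12 collagen genes were lower. With WT as control, where genes are filtered anew, 22 replication, 12 splicing and 32 inflammatory genes were lower, and 7 lysosome and 2 p53 genes higher. The cause of each of these moves was not tested. Leaving out the 66 genes at 0 in all pooled columns, an alternative chosen after seeing the data, gave 1268 genes higher and 1614 lower. Among 162 named genes, 17 called genes took the other sign, each only with WT as control, with log2 ratios of ASNS 3.51, CCNA2 -2.07, CRELD2 -0.07, CXCL12 1.06, DNAJB9 -0.84, GDF15 -1.07, HDAC9 -0.04, HMGN2 0.15, IGF1R -0.50, IL6 -5.12, IRS2 -0.28, MCM4 -0.92, MMP3 -0.26, PLK3 -0.09, POSTN 0.06, RPS27 -0.63, WAPL -0.58. Of 130 list medians under an alternative, 1 had the other sign.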

Other observations

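Long noncoding RNAs were compared from all reads only, since they have no coding sequence. Of 146 with a mean of at least 10 CPM, 58 had a log2 ratio above 1 and 22 below -1, with a median of 0.44. Among the 11932 protein-coding genes, 1920 passed upward and 1961 downward by all reads, but in both libraries and with a filter at 2 CPM. Some passed the 10 CPM filter through the ICM libraries alone, such as LINC02067 and LINC01623, at 0 reads in I79 young. The counts are therefore descriptions of these columns. In WT, 18 of them lay above 1 and 38 below -1. Antisense symbols were among the largest rises. Some were high in WT too, such as VIM-AS1, with 9.42 with ICM and 7.05 in WT, and CEBPB-AS1, with 7.07 and 7.57. Others were not, such as MIF-AS1, with 11.87 with ICM and 0 reads in both WT libraries, and TAPT1-AS1, with 6.75 and 0.05. Whether reads were counted by strand is not given in the sources used here, so antisense symbols cannot be told apart from their sense genes. CARMN, a transcript of smooth muscle and fibroblasts, had 55.8 CPM in I79 young and 1 and 0 reads with ICM, and WT was also low, at 1.35 and 2.04 CPM. MEG3, an imprinted transcript, had a ratio of -3.00, with WT at -1.83. MALAT1, of nuclear speckles, had -2.18 with ICM and 1.16 in WT, and NEAT1, the scaffold of paraspeckles, 1.11 and 0.28. The 12 hosts of small nucleolar RNAs had a median of -0.32 with ICM and -0.76 in WT, and 3 lay below -1.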
